A study of Mus musculus with 20 samples.

Results

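Spp1, Tgm2, Cd38, Fn1, Cd9, Lgals3, Marco and Adam8, 8 of the 50600 entries of the deposited gene tables, were followed in eosinophils and macrophages of naive mouse colon and of colonic tumors. The genes are often used to mark macrophages of tumors and of tissue under repair. They were picked by name, in part for how they differ between naive and tumor libraries in these same data, so their tumor against naive values are given as a description. Where limma's threshold is named for them, it says on which side of it a value fell and supports nothing further. RNA was measured by CEL-Seq, which tags the 3′ end of polyadenylated RNA and amplifies it by in vitro transcription before sequencing.

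The mice were wild-type C57BL/6 animals. Naive mice gave the control colons, and the tumors came from mice that had gone through the induction that the labels call CAC. Colons were digested with enzymes, and eosinophils (granulocytes that live in the gut wall) and macrophages (its phagocytes) were taken by flow cytometry. There were 2 libraries of naive eosinophils, 7 of tumor eosinophils, 5 of naive macrophages and 6 of tumor macrophages. Neither the labels nor the tables state the age or sex of the mice, the markers of the sort or whether each library is 1 mouse, so every test below measures the spread between these libraries, which may be technical in part.

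Osteopontin, the product of Spp1, is a secreted phosphoprotein that binds integrins and the hyaluronan receptor CD44 through short motifs exposed or freed by proteases. Fibronectin, the product of Fn1, is a matrix glycoprotein that shares several of those integrins and is one of the proteins that tissue transglutaminase (Tgm2) crosslinks. Macrophages that take up dying cells, lipid or matrix tend to raise osteopontin, galectin-3 (Lgals3) and the tetraspanin CD9; eosinophils are known above all for preformed granule proteins.

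In GRCm38 coordinates with the GENCODE M21 annotation, Spp1 lies on the plus strand of chromosome 5 from 104435118 to 104441050. Cd38 is on the same strand and chromosome from 43868553 to 43912375. Tgm2 lies on the minus strand of chromosome 2 from 158116402 to 158146436, and Fn1 on the minus strand of chromosome 1 from 71585520 to 71653200. Marco is also on the minus strand of chromosome 1, from 120474538 to 120505024. Cd9 (chromosome 6, 125460266 to 125494791) and Adam8 (chromosome 7, 139978932 to 139992562) are on minus strands, and Lgals3 (chromosome 14, 47367751 to 47386160) is on a plus strand.

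Promoter windows of RefSeq (GRCm38.p6, 250 bases before to 50 after a gene start) were at hand for Spp1, Cd38, Marco, Cd9, Adam8 and Lgals3, 7 windows in all since Spp1 has a pair of them. The letters GAGGAA, a core bound by PU.1 and other ETS factors, were searched on both strands. They occurred in 2 of the 7 windows and in 28.3% of all 32851 windows. The 250 bases before the start are shown for the genes of both windows, because Spp1 had the largest tumor difference of the 8 genes in macrophages and Marco was barely read in any library. The Spp1 stretch is chr5:104434861-104435110 on the plus strand and the Marco stretch is chr1:120505025-120505274 read on the minus strand, and capitals mark the GAGGAA match.
Spp1: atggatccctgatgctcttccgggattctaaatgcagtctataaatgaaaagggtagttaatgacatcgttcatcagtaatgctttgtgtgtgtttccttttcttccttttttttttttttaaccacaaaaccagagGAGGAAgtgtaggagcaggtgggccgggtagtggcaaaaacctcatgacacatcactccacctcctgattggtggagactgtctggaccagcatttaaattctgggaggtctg
Marco: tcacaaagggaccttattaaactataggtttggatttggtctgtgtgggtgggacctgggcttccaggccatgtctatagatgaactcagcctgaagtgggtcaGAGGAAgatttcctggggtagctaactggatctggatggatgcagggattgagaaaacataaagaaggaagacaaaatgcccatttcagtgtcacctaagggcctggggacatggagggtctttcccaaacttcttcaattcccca
The match begins 113 bases before the start in Spp1 and 146 bases before it in Marco. The letters TGANTCA (AP-1), CACGTG (E-box), TTCNNNGAA (STAT) and ACGTG (hypoxia element, contained in the E-box letters) were in 0 of the 7 windows, and in 7.81, 7.15, 8.30 and 19.6% of all windows. The loose NF-kB pattern was in 3 of the 7, those of Marco, Cd9 and Lgals3, and in 50.8% of all. A match of letters is a description of the sequence only.

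Depth ran from 1477255 to 8520874 reads per library, and 16282 to 20948 genes had a read. Mitochondrial reads made up 15.2 to 35.2% of the eosinophil libraries, with tumor replicates 2 and 3 standing apart at 34.9 and 35.2%, and 8.23 to 15.9% of the macrophage libraries. Counts scaled to library size (CPM) of the macrophage markers summed to 10033 to 14427 in the macrophage libraries and 269 to 695 in the eosinophil libraries. The eosinophil markers summed to 981 to 9858 in the eosinophil libraries and 21.5 to 117 in the macrophage libraries. Epx, the eosinophil peroxidase gene, averaged 1.43 CPM in naive and 50.9 in tumor eosinophils and was at 0 in tumor macrophages. Neutrophil markers, with Retnlg at their head, summed to 4799 to 14594 in the eosinophil libraries and exceeded the eosinophil sum in 9 of 9. After joint scaling Retnlg averaged 11816 CPM in naive and 9255 in tumor eosinophils. S100a8 averaged 7.17 and 185 there, and S100a9 20.1 and 470. Elane and Mpo were at 0 in naive eosinophils. The sum thus follows mainly Retnlg and does not count cells. The macrophage libraries had neutrophil sums of 39.3 to 65.1 (naive) and 138 to 848 (tumor). In sorted bulk RNA, fewer cells of a type and less RNA per cell cannot be told apart.

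Across the groups the 8 genes fell into distinct patterns. Spp1, Tgm2, Cd38 and Fn1 had higher means in tumor than in naive macrophages and lay past the threshold there, and Spp1 did so in eosinophils too. Tgm2, Cd9 and Adam8 were higher in the eosinophil sort than in the macrophage sort, and Lgals3 differed little between any groups. The eosinophil excess ran from 2.38-fold for Cd9 in tumors to 54.4-fold for Tgm2 in naive libraries. A gene is called when limma's adjusted p is under 0.05 on log2(normalised reads + 1). In macrophages 7 of the 8 genes were tested and 4 were called, all higher, against 17.1% of all 11520 genes tested (8.5% higher and 8.59% lower). In eosinophils 7 were tested and 1 was called, against 4.61% of 12967 genes (2.42% higher and 2.19% lower). Groups did not overlap for 3 of the 8 genes in each cell type, against 10.7% of genes tested in macrophages and 17.1% in eosinophils. Since the genes were picked on this contrast, nothing is read from these shares. The median log2 change of the tested members was 0.82 in macrophages and −0.46 in eosinophils, against 0.03 and 0.01 over all genes tested.

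**Figure D1:**
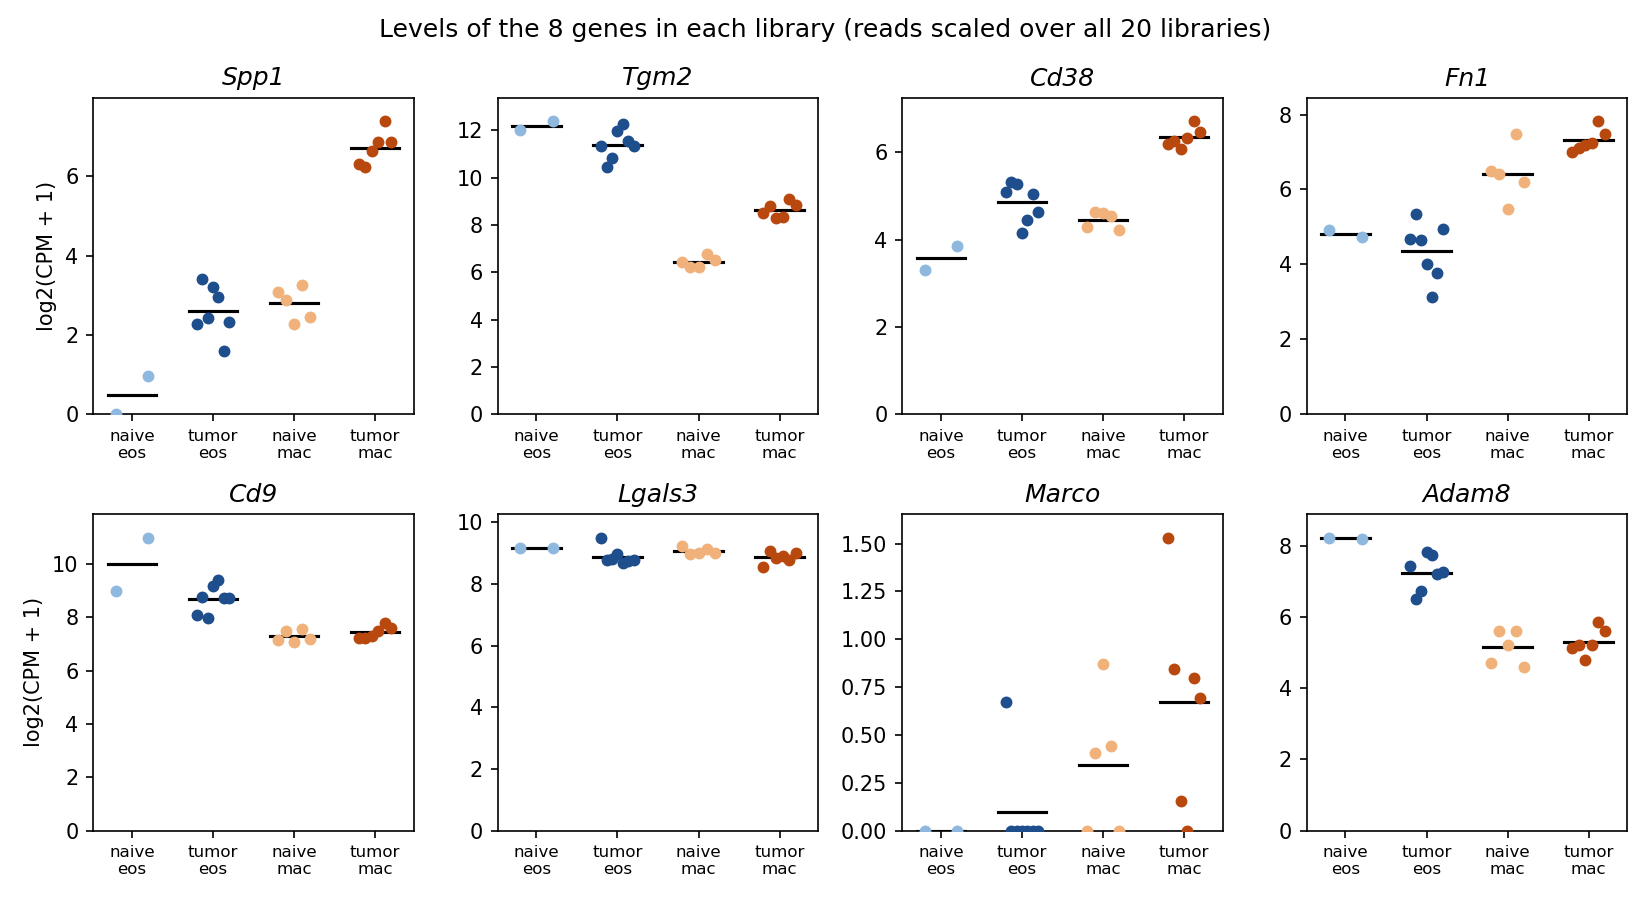
Level of each of the 8 genes in each of the 20 libraries, as log2(CPM + 1) after reads of all libraries were scaled together. Each point is a library, the black line is the group mean, and the vertical scale differs between panels. Spp1, Tgm2 and Cd38 sit higher in all 6 tumor macrophage libraries than in all 5 naive ones.

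Spp1 was the gene with the largest difference. Naive macrophages held 35.66, 27.75, 18.01, 37.66 and 21.25 normalised reads, and tumor macrophages ran from 319.18 through a median of 452.73 to 706.73. The lowest tumor library was therefore several times above the highest naive one. The means were 28.1 ± 8.62 (SD, n = 5) and 464 ± 137 (n = 6), a 16.5-fold ratio and a log2 change of 4.0 ± 0.23 (SE). With any 1 of the 11 libraries left out the log2 change stayed between 3.86 and 4.12.

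In eosinophils Spp1 was a rare transcript. The naive libraries held 0 and 3.62 normalised reads. The tumor libraries ran from 8.60 through a median of 16.55 to 35.11. Both naive libraries were below all 7 tumor libraries. In reads, these are 3 in naive against 203 in tumor eosinophils, a ratio of 19.0 after division by the authors' size factors, with an exact 95% interval of 6.42 to 93.0 that covers counting error only. The log2 change was 3.19 ± 0.70 (SE). The gene passed the filter on low values through its tumor libraries alone, so that it had to differ once tested. The change was 2.09 without naive library 1, 3.05 without both high-mitochondrial tumor libraries, 3.82 with edgeR and 4.48 with limma-voom, each short of the threshold.

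Transcripts of macrophages in the eosinophil sort are set beside the Spp1 difference. The mean level of Spp1 in tumor eosinophils was 5.13% of that in tumor macrophages. The complement genes C1qa, C1qb and C1qc, made by tissue macrophages, were at 1.77, 6.81 and 2.53% in the same comparison. In naive libraries the shares were 7.61% for Spp1 and 0.60, 1.42 and 0.67% for the complement genes. The naive Spp1 share rests on eosinophil libraries with 0 and 3 reads. With reads pooled relative to scaled depth, naive macrophages exceeded naive eosinophils 20.9-fold (exact interval 7.03 to 102, counting error only). That ratio stands for a share below 7.61%. Whether the Spp1 share rose or fell from naive to tumor libraries therefore cannot be told. Csf1r, the receptor for a macrophage growth factor, went the other way from the complement genes, at 26% in naive and 21% in tumor libraries. The whole list of 12 macrophage markers summed to 269 and 357 CPM in naive and 446 to 695 in tumor eosinophils, with 2 of 8 tested members called higher and Cd163 at 0 in naive eosinophils. The part of macrophage RNA in the Spp1 reads of eosinophils was not tested.

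Fn1, the other matrix protein, showed a smaller difference in macrophages and wide spread. Naive macrophages held 419.06, 367.76, 203.3, 775.62 and 349.03 normalised reads and tumor macrophages 585.6 to 954.65, with a median of 631.38. The groups overlapped because naive library 4 exceeded most tumor libraries, and the coefficient of variation was 50.3% in naive against 20.6% in tumor macrophages. The mean went from 423 ± 213 (SD, n = 5) to 692 ± 143 (n = 6), with a log2 change of 0.82 ± 0.25 (SE). It stayed past the threshold without naive library 4, tumor library 1 or tumor library 2, 3 of 11 refits, and not without any other single library (0.59 to 1.07 over all 11) or with edgeR (0.68) and DESeq2 (0.69). In eosinophils Fn1 stood at 103.25 and 97.81 in naive and 27.7 to 144.4 in tumor libraries, median 85.34, with overlap and a log2 change of −0.46 ± 0.52 (SE).

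Tgm2 encodes tissue transglutaminase, which joins glutamine and lysine side chains of matrix proteins and also acts as a GTP-binding protein inside cells. Naive macrophages held 401.22, 323.56, 342.27, 476.98 and 434.01 normalised reads, and tumor macrophages 1351.25 to 2324.79, median 1799.64. The groups were far apart: the means were 396 ± 63.6 (SD, n = 5) and 1764 ± 380 (n = 6), a 4.46-fold ratio and a log2 change of 2.14 ± 0.16 (SE), 2.06 to 2.21 with a library left out. The eosinophil sort held far more of it. Naive eosinophils had 14663.54 and 20588.03 normalised reads in their own table and tumor eosinophils 5195.26 to 17584.99, median 9990.19. The log2 change there was −0.78 ± 0.43 (SE), with overlapping groups.

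Because Tgm2 was so abundant in the eosinophil sort, transcripts of granulocytes in the macrophage sort were set beside it. Tgm2 in macrophages was at 1.82% of its eosinophil level in naive and 14.0% in tumor libraries. Over the same pairs Retnlg was at 0.119 and 0.722%, Siglecf at 0.743 and 1.59%, Ccr3 at 0.0983 and 0.152% and S100a8 at 19.9 and 22.3%. Il5ra was at 2.02 and 6.31% and S100a9 at 11.5 and 20.2%. The granule genes had smaller shares in tumors: Prg2 was at 5.25 and 0.583%, and Epx, at 0.0754 CPM in naive macrophages, was at 5.26% and then 0. Each share also moves with the eosinophil level. In macrophages themselves, Siglecf averaged 3.15 CPM in naive and 1.72 in tumor libraries, and Ccr3 0.895 and 0.484. Il5ra averaged 2.57 and 2.30 CPM there, and Prg2 14.6 and 11.4. Retnlg averaged 14.1 and 66.8 CPM in the same libraries, S100a8 1.42 and 41.3, and S100a9 2.32 and 94.9. In eosinophils Siglecf, Ccr3 and Il5ra had lower means in tumors, and Prg2 and Epx higher ones. Of the neutrophil marker list 6 of 9 tested members were called higher and none lower in tumor macrophages, and of the eosinophil list 2 of 7 were called lower and none higher. Over all genes tested in macrophages 8.5% were called higher and 8.59% lower. The share of granulocyte RNA in the macrophage Tgm2 level was not tested.

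Cd38 encodes a surface enzyme that consumes NAD and makes cyclic ADP-ribose. It stood at 87.38, 102.99, 108.08, 97.8 and 84.98 normalised reads in naive macrophages, and between 286.28 and 439.98, median 333.89, in tumor macrophages. These groups did not overlap, and they were tight: 96.2 ± 9.92 (SD, n = 5) against 348 ± 52.2 (n = 6), a log2 change of 1.84 ± 0.14 (SE), 1.77 to 1.89 with a library left out. In eosinophils it stood at 31.32 and 51.92 in naive and 61.82 to 144.11, median 113.44, in tumor libraries. All 7 tumor libraries were above both naive ones, and the log2 change was 1.35 ± 0.40 (SE).

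Adam8 encodes a membrane metalloprotease of leukocytes. In macrophages its level was 112.3 to 211.29 normalised reads in naive and 114.99 to 245.41 in tumor libraries, with a log2 change of 0.08 ± 0.22 (SE). In eosinophils it stood at 1064.42 and 1138.68 in naive libraries and at 602.99, 334.78, 406.12, 834.54, 769.83, 632.19 and 597.4 in tumor replicates 1 to 7. All 7 tumor values were below both naive values, 597 ± 179 (SD, n = 7) against 1102 ± 52.5 (n = 2), with a log2 change of −0.94 ± 0.34 (SE).

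**Figure D2:**
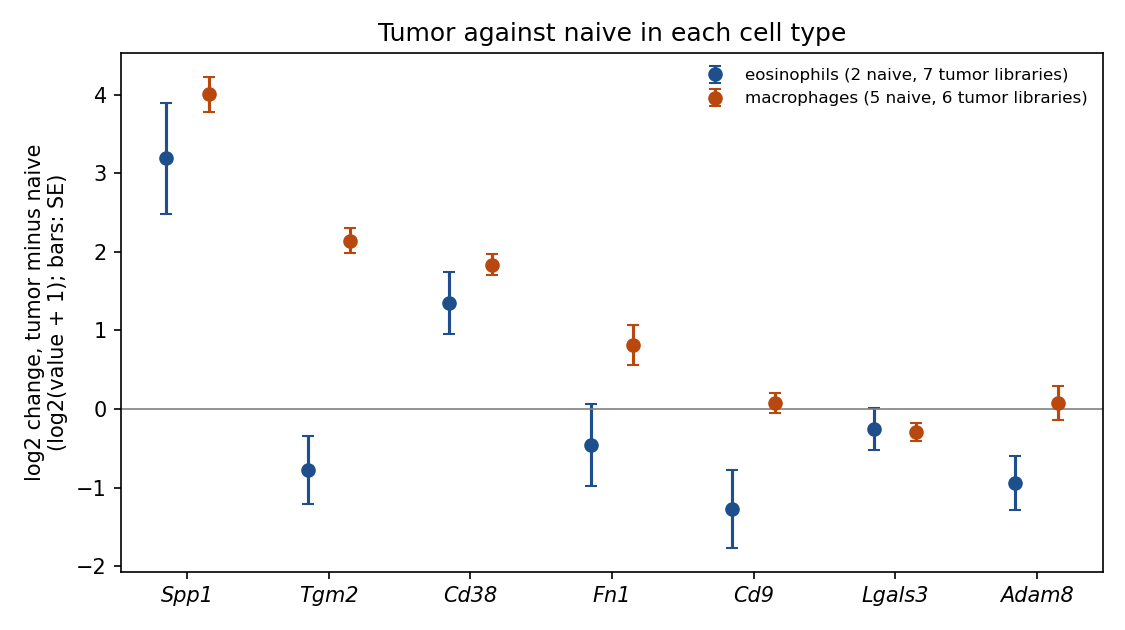
Log2 change from naive to tumor of the 7 tested genes in each cell type, with bars for the standard error, on the scale log2(normalised reads + 1). Spp1 lies above 3 in both cell types, Tgm2 is at 2.14 in macrophages and −0.78 in eosinophils, and Lgals3 lies near 0 in both.

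Cd9 encodes a tetraspanin that organises integrins in the membrane. Naive macrophages held 625.34 to 821.64 normalised reads and tumor macrophages 650.8 to 934.56, and the log2 change was 0.07 ± 0.13 (SE). The pair of naive eosinophil libraries disagreed, at 1794.15 and 7854.85, and the tumor libraries ran from 931.57 to 2420.29, median 1628.14. Naive library 1 thus sat inside the tumor range and naive library 2 far above it. The log2 change was −1.27 ± 0.50 (SE), but −2.34 without naive library 1 and −0.21 without naive library 2.

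Lgals3 encodes galectin-3, a lectin secreted by macrophages and epithelium. It stood at 2189.18 to 2822.83 normalised reads in naive and 1739.32 to 2328.94 in tumor macrophages, with a log2 change of −0.29 ± 0.12 (SE). Eosinophils had 2022.7 and 2213.36 in naive and 1455.09 to 2500.89 in tumor libraries, a log2 change of −0.25 ± 0.26 (SE). The groups overlapped in both cell types.

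Marco, a scavenger receptor of macrophages that bind particles and bacteria, was close to the limit of detection and failed the filter in both cell types. Naive eosinophils had 0 of 11922227 reads, which allows up to 3 reads or 0.252 CPM, and tumor eosinophils had 4 reads, all in replicate 1. Naive macrophages had 9 reads in 3 of 5 libraries and tumor macrophages 21 reads in 5 of 6. Pooled over libraries and divided by size factors, the tumor to naive ratio in macrophages was 1.35, with an exact 95% interval of 0.593 to 3.35 for counting error. The means of normalised reads, which weight libraries equally, were 1.37 and 3.07, a ratio of 2.24, with tumor replicate 1 highest at 8.74. At this depth no difference was detectable.

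Within tumor eosinophils, the libraries differed from each other in an order that Tgm2 and Adam8 shared at its low end. Tgm2 was 5195.26 and 6965.33 normalised reads in tumor replicates 2 and 3, the lowest of the 7, and Adam8 was lowest in the same pair. These are the libraries with 34.9 and 35.2% mitochondrial reads. They also had the lowest sums of neutrophil markers, 4799 and 5341 CPM, and of eosinophil markers, 981 and 1081. Their epithelial markers summed to 5625 and 5506 CPM. That sum was 5773 in tumor replicate 1, 1889 to 2726 in the other tumor libraries, and 2791 and 1745 in naive replicates 1 and 2. The highest Tgm2 values, 14654.17 and 17584.99 in replicates 4 and 5, came with 16.7 and 15.2% mitochondrial reads and neutrophil sums of 13072 and 14594. Between naive and tumor eosinophils the markers differed too. Of the eosinophil list 4 of 12 tested members were called lower and 0 higher. Of the neutrophil list 5 of 13 were called higher and 0 lower. Over all genes 2.42% were called higher and 2.19% lower. Siglecf averaged 424 CPM in naive and 108 in tumor eosinophils, Ccr3 910 and 319, and Il5ra 127 and 36.4. Prg2, at 278 and 1945, and Epx, at 1.43 and 50.9, had higher means in tumors. The part of RNA quality or of cell makeup in the Tgm2, Adam8 and Cd9 values was not tested.

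**Figure D3:**
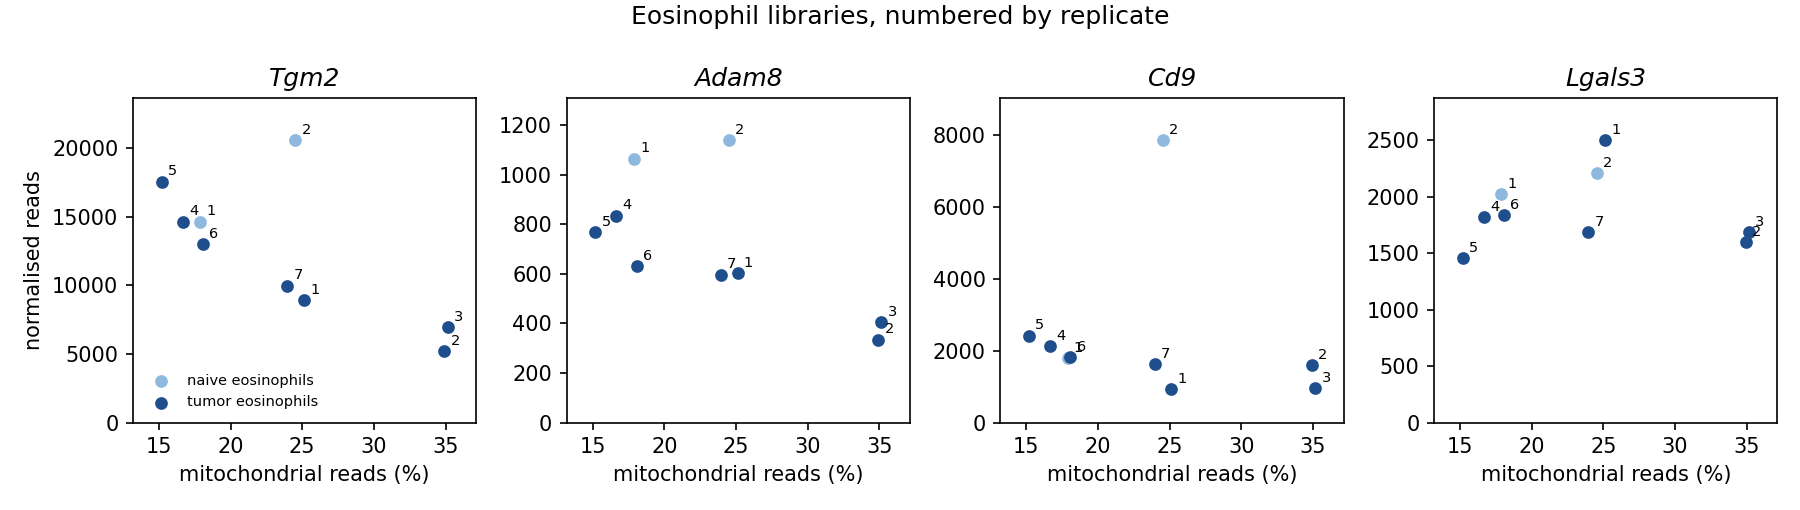
Normalised reads of Tgm2, Adam8, Cd9 and Lgals3 against the percent of mitochondrial reads in the 9 eosinophil libraries, numbered by replicate. Tumor replicates 2 and 3, at 34.9 and 35.2%, hold the lowest Tgm2 and Adam8 values, and naive replicate 2 holds the highest Cd9 value.

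The levels in eosinophils and macrophages were then compared after the reads of all 20 libraries had been scaled together. These contrasts are not the one the genes were picked on, but the same libraries entered that choice. Among naive libraries 6 of the 7 tested genes differed between the cell types, against 29.2% of 15779 genes (14.5% higher and 14.7% lower in eosinophils). Among tumor libraries it was 6 of 7 again, against 42.4% (19.0% higher and 23.3% lower). Tgm2, Cd9 and Adam8 were higher in eosinophils, 3 of 7. Spp1, Fn1 and Cd38 were higher in macrophages, also 3 of 7. For each of these genes the libraries of both cell types did not overlap within naive or within tumor samples. The share of all genes without overlap between the cell types was not counted, so nothing is read from this.

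Tgm2 had the widest gap. Its mean was 4753 CPM (4169 to 5338) in naive eosinophils and 86.6 (73.6 to 109) in naive macrophages, and the log2 difference was 5.77 ± 0.35 (SE), 54.4-fold (limma, adjusted p 6.68e-12). In tumors the means were 2910 CPM (1419 to 4915) and 409 (316 to 546), and the difference was 2.75 ± 0.23 (SE), 6.72-fold (limma, adjusted p 1.13e-09). The tumor effect in eosinophils minus that in macrophages was −3.02 ± 0.42 (SE), given as a description, and lay between −3.47 and −2.65 under the alternatives. Over all 15779 genes this difference was called for 4.11% (1.62% higher and 2.48% lower in eosinophils). In order, then, Tgm2 was highest in both eosinophil groups, whose ranges overlapped, then in tumor macrophages and then in naive macrophages.

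Spp1 followed another order. Tumor macrophages averaged 108 CPM (73.8 to 166), naive macrophages 6.17 (3.88 to 8.62), tumor eosinophils 5.53 (2.02 to 9.59) and naive eosinophils 0.470. The 2 middle groups overlapped and did not separate. Tumor macrophages exceeded tumor eosinophils by 4.12 ± 0.28 (SE) on the log2 scale, 17.4-fold (limma, adjusted p 3.72e-11). Among naive libraries macrophages had 172 reads and eosinophils 3, a ratio of 20.9 relative to TMM-scaled depth (exact 95% interval 7.03 to 102, counting error only), and limma's adjusted p was 0.000173 but 0.0729 with limma-voom. The tumor effects differed by −1.80 ± 0.51 (SE), a value that turned to 0.41 with limma-voom and 0.089 with DESeq2, so its direction depends on the method.

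Cd38 was highest in tumor macrophages, at 80.8 CPM (66.9 to 103). Tumor eosinophils at 29.0 (16.9 to 39.0) and naive macrophages at 21.1 (17.7 to 23.8) overlapped, and naive eosinophils were lowest at 11.2 (8.91 to 13.5). Macrophages exceeded eosinophils by 1.49 ± 0.19 (SE) on the log2 scale in tumors (limma, adjusted p 1.48e-06). In naive libraries the difference was 0.88 ± 0.29 (SE; limma, adjusted p 0.0261), and the adjusted p rose to 0.296 without naive eosinophil library 1 and to 0.0561, 0.0549 and 0.0507 without naive macrophage libraries 2, 3 and 4. The naive difference was also short of the threshold with limma-voom (adjusted p 0.128) and with a block for replicate number (limma, adjusted p 0.0857). The tumor effects differed by −0.61 ± 0.35 (SE).

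Fn1 was likewise higher in the macrophage sort, with 161 CPM (127 to 224) in tumor and 93.5 (43.7 to 178) in naive macrophages, whose ranges overlapped. Eosinophils held 21.9 (7.74 to 39.4) in tumors and 27.4 (25.4 to 29.4) in naive colon, again with overlap. The macrophage excess was 2.95 ± 0.30 (SE) on the log2 scale in tumors (adjusted p 3.74e-08 by limma) and 1.59 ± 0.46 in naive libraries (adjusted p 0.0101 by limma, 0.0876 without naive eosinophil library 2 and 0.0977 with limma-voom). The tumor effects differed by −1.36 ± 0.55 (SE). Fibroblast and smooth muscle markers summed to 815 to 3490 CPM in naive and 294 to 749 in tumor macrophages. In eosinophils they summed to 828 to 1708 CPM in naive and 400 to 2302 in tumor libraries. Their part in the Fn1 reads was not tested.

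Adam8 and Cd9 leaned to eosinophils. Adam8 stood at 299 CPM (295 to 303) in naive and 160 (91.4 to 228) in tumor eosinophils, against 36.3 and 39.9 in naive and tumor macrophages. The eosinophil excess was 3.07 ± 0.35 (SE), 8.40-fold, in naive libraries (adjusted p 2.46e-07 by limma) and 1.95 ± 0.23, 3.86-fold, in tumors (adjusted p 3.49e-07 by limma). Cd9 stood at 1273 CPM (510 to 2037) in naive and 437 (252 to 676) in tumor eosinophils, against 157 and 175 in macrophages. Its excess was 2.70 ± 0.38 (SE) in naive libraries (adjusted p 6.79e-06 by limma) and 1.25 ± 0.26 in tumors (adjusted p 0.000374 by limma). The tumor effects of eosinophils minus macrophages were −1.12 ± 0.42 (SE) for Adam8 and −1.45 ± 0.46 for Cd9, the latter between −2.47 and −0.41 under the alternatives.

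Lgals3 stood at 574 and 481 CPM in naive and tumor eosinophils and 537 and 467 in naive and tumor macrophages. The cell types differed by 0.10 ± 0.22 (SE) on the log2 scale in naive libraries (adjusted p 0.782 by limma) and by 0.03 ± 0.15 in tumors (adjusted p 0.897 by limma). Its tumor effects differed by −0.07 ± 0.26 (SE). The standard errors leave room for differences of that order in either direction.

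Of the receptors that bind osteopontin or fibronectin, 12 were looked up in both tables. This list and the later ones were chosen with earlier results of these data known. Their counts and p-values are therefore a description. This and every later list count of tumor against naive stands against the shares over all genes. These were 8.5% higher and 8.59% lower in tumor macrophages and 2.42% higher and 2.19% lower in tumor eosinophils. In tumor macrophages 3 of 10 tested receptors fell and none rose (list median −0.21, against 0.03 over all genes). Cd44, the hyaluronan receptor, fell from 4363 ± 581 to 2325 ± 743 normalised reads (SD, n = 5 and 6; log2 change −0.96 ± 0.20 SE, adjusted p 0.00313 by limma). The integrin subunits Itgav (−0.59 ± 0.13, adjusted p 0.00687 by limma) and Itgb7 (−1.67 ± 0.28, adjusted p 0.000807 by limma) fell as well. Itgb1, Itgb3, Itgb5, Itgb8, Itga4, Itga5 and Itga9 were not called, at 0.22, −0.12, 0.28, 1.1, −0.48, −0.06 and −0.30. Spp1, Fn1 and the receptors that passed the test thus had opposite signs in macrophages.

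In tumor eosinophils 1 receptor of 12 rose and 1 fell (list median 0.00, against 0.01). Cd44 fell from 18210 ± 11951 to 4776 ± 1307 normalised reads (SD, n = 2 and 7; −1.81 ± 0.42 SE, adjusted p 0.0300 by limma). Its change was −1.09 without naive library 2 (adjusted p 0.435 by limma), and the call also ended without tumor library 1 (0.0550) and with limma-voom (0.0624). Itgb8, an integrin subunit that binds latent TGF-beta, stood at 1.79 ± 0.891 in naive and 26.4 ± 15.1 in tumor eosinophils (3.08 ± 0.72 SE, adjusted p 0.0307 by limma). It passed the filter through its tumor libraries alone, and its call ended in 8 of 18 alternatives, among them the loss of either naive library. Itgb7 was just outside the threshold at −1.43 (adjusted p 0.0501 by limma). The rest were not called: Itgav −0.71, Itgb1 0.43, Itgb3 −1.35, Itgb5 0.76, Itgb6 2.72, Itga4 −0.17, Itga5 0.58, Itga8 −1.27 and Itga9 0.17.

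The receptor sets of the sorted cells were distinct. Naive eosinophils exceeded naive macrophages in Itgb3 by 5.35 ± 0.52 on the log2 scale (SE, adjusted p 2.33e-08 by limma), at 526.1 ± 14.8 against 12.5 ± 4.57 CPM. They also exceeded them in Itgb7 (3.28 ± 0.40), Cd44 (2.21 ± 0.36) and Itga4 (1.52 ± 0.41). Macrophages exceeded eosinophils in Itgb5 by 4.75 ± 0.32 (adjusted p 5.80e-11 by limma), at 189 ± 37.8 against 6.93 ± 5.37 CPM. Itga9 (4.33 ± 0.33) and Itga5, the alpha subunit of the classical fibronectin receptor (2.31 ± 0.34), were on the macrophage side too. In tumors the same 7 receptors differed in the same directions, and Itgav was called in addition, higher in macrophages by 0.88 ± 0.20. All 12 receptors were tested, and over all genes 29.2% differed between naive and 42.4% between tumor cell types.

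**Figure D4:**
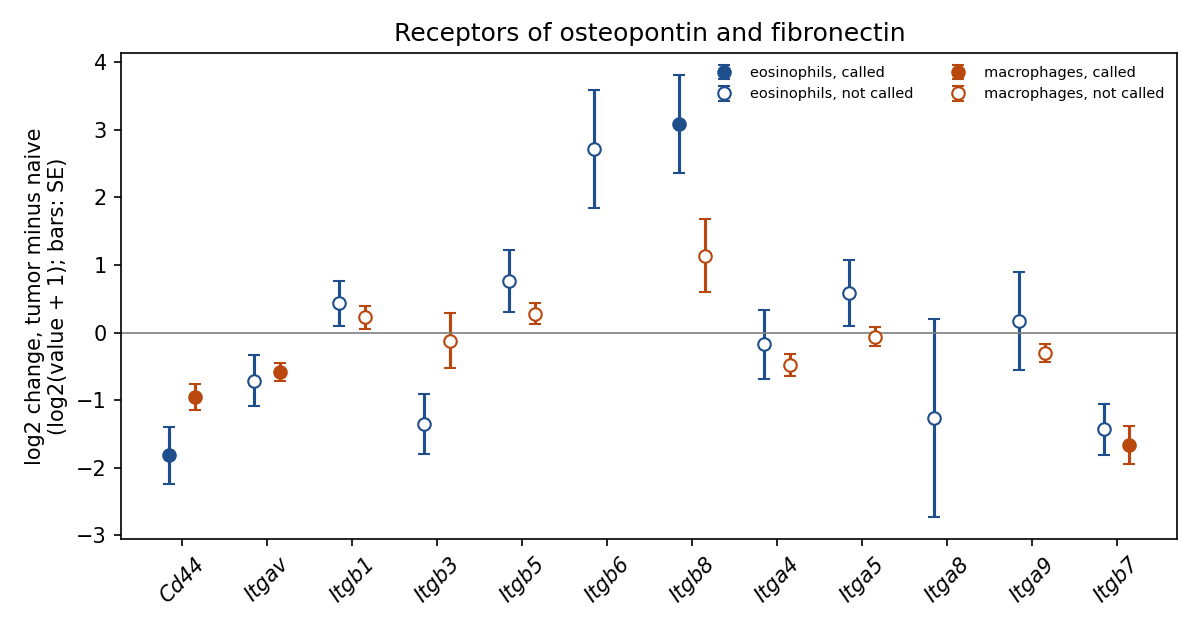
Log2 change from naive to tumor of each tested receptor of osteopontin and fibronectin in eosinophils and macrophages, with bars for the standard error. Filled points are called by limma: Cd44 in both cell types and Itgb8 in eosinophils, and Itgav and Itgb7 in macrophages.

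Of the proteases that cut osteopontin, 3 of 5 tested rose in macrophages (list median 0.77, against 0.03). Mmp7, the matrilysin, rose from 18.0 ± 12.4 to 481.5 ± 191 normalised reads (log2 change 4.81 ± 0.38 SE, adjusted p 1.2e-06 by limma). Mmp12, the macrophage elastase, rose by 1.35 ± 0.24 and the gelatinase Mmp2 by 0.77 ± 0.15 on the log2 scale. In eosinophils 0 of 4 were called (median 0.39). Epithelial markers summed to 569 to 3762 CPM in naive and 1348 to 2317 in tumor macrophages, and their part in the Mmp7 reads was not tested.

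Other matrix glycoproteins did not move as a block in macrophages, where 3 of 12 tested rose and 5 fell (list median −0.48). Thbs1, thrombospondin 1, rose from 139.7 ± 55.4 to 827 ± 248 normalised reads (2.61 ± 0.27 SE, adjusted p 9.79e-06 by limma), and Tgfbi, a secreted integrin ligand, from 1503 ± 125 to 3553 ± 658 (1.22 ± 0.14). Ecm1 fell from 994 ± 123 to 314 ± 123 (−1.73 ± 0.21). Postn, Fbln1 and Fbln2, products of fibroblasts that were named after their values were seen, fell by 2.76, 1.43 and 2.06, the last not called without naive macrophage library 5 (adjusted p 0.0564 by limma). Postn passed the filter through its naive libraries alone. Fibroblast and smooth muscle markers summed to 815 to 3490 CPM in naive and 294 to 749 in tumor macrophages, with 6 of 12 called lower and none higher. Their part in these changes was not tested. In eosinophils 0 of 14 were called (median 0.11).

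Of 8 listed transglutaminase relatives of Tgm2, 2 were tested in macrophages and both fell. F13a1, the clotting factor XIII subunit of resident macrophages and monocytes, fell from 363 ± 48.2 to 46.2 ± 30.7 normalised reads (−3.20 ± 0.36 SE, adjusted p 2.5e-05 by limma). Tgm3, a transglutaminase of epithelia, fell from 712 ± 789 to 53.4 ± 15.4 (−3.23 ± 0.44), beside the epithelial sums of 569 to 3762 CPM in naive and 1348 to 2317 in tumor macrophages, whose part was not tested. In eosinophils F13a1 was at 0.99 ± 0.76 (SE) and Tgm3 at −1.68 ± 1.0, neither called. The list median was −3.22 in macrophages and −0.34 in eosinophils.

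Among the CD38 paralog, its ligand and NAD enzymes, 3 of 16 tested rose and 1 fell in macrophages (median 0.11). Nt5e, the ectonucleotidase CD73, rose from 17.4 ± 6.08 to 104 ± 27 normalised reads (2.54 ± 0.25 SE, adjusted p 6.27e-06 by limma). Nampt, the rate-limiting enzyme of NAD salvage, rose by 1.57 ± 0.22, and Bst1, the paralog of Cd38, by 2.16 ± 0.61, a call that ended without tumor macrophage library 5 or 6 (adjusted p 0.0533 and 0.0517 by limma). In eosinophils Bst1 rose by 2.34 ± 0.61 (adjusted p 0.0485 by limma) and Pecam1, the ligand of CD38, fell by 1.31 ± 0.31 (adjusted p 0.0300 by limma), 2 of 15 tested (median 0.41). There Bst1 passed the filter through its tumor libraries alone, so that it had to differ once tested. Its call ended with edgeR and limma-voom, and that of Pecam1 with limma-voom.

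Of the tetraspanins and CD9 partners 2 of 17 rose and 3 fell in macrophages (median 0.06). Cd81, the closest relative of Cd9, fell from 1897 ± 124 to 857 ± 74.6 normalised reads (−1.15 ± 0.11 SE, adjusted p 4.66e-06 by limma), whereas the lysosomal Cd63 rose by 0.97 ± 0.15 and the CD9 partner Ptgfrn by 1.21 ± 0.21. In eosinophils 1 of 17 was called (median 0.59), a share near the 4.61% of all genes: Tspan32 fell by 1.76 ± 0.28 (adjusted p 0.00503 by limma). Cd9 itself, with a change of 0.07 in macrophages, followed neither Cd81 nor Cd63.

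The galectin list had 2 of 6 higher and 1 lower in macrophages (median 0.34) and 1 of 8 higher in eosinophils (median 0.45). Lgals3bp, a secreted ligand of galectin-3, rose in both, by 0.94 ± 0.14 (adjusted p 0.000204 by limma) in macrophages and 1.63 ± 0.41 (adjusted p 0.0424 by limma) in eosinophils. In macrophages Lgals8 rose by 0.91 ± 0.25 and Lgals1 fell by 0.58 ± 0.13. Msr1, the class A scavenger receptor related to Marco, rose in macrophages from 440 ± 73.8 to 948 ± 190 normalised reads (1.10 ± 0.16 SE, adjusted p 0.000235 by limma), 1 of 3 tested there (median 0.71) and 0 of 2 in eosinophils (median −0.19).

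Most ADAM relatives of Adam8 that were called fell. In macrophages 5 of 9 fell and 2 rose (median −0.86), and in eosinophils 2 of 8 fell (median 0.13). Adam19 fell in both, by 1.91 ± 0.25 (adjusted p 9.20e-05 by limma) in macrophages and 2.07 ± 0.30 (adjusted p 0.00351 by limma) in eosinophils. Adam33, a gene of mesenchymal cells, and Adam15 fell in macrophages by 3.48 ± 0.56 and 0.86 ± 0.20, and Adamdec1, a protease of gut macrophages, fell in eosinophils by 1.73 ± 0.34.

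A list of genes of lipid-laden macrophages, the state in which Spp1 is often described, had 6 of 16 higher and 2 lower in tumor macrophages (median 0.17) and 4 of 14 higher in tumor eosinophils (median 0.15). Fabp5, a fatty acid carrier, rose by 2.01 ± 0.17 (adjusted p 2.52e-06 by limma) in macrophages and 2.82 ± 0.48 (adjusted p 0.00647 by limma) in eosinophils. In eosinophils Fabp5 passed the filter through its tumor libraries alone, so that it had to differ once tested. The protease Ctsd rose by 1.49 ± 0.13 in macrophages, where the lipid receptor Cd36 fell by 2.29 ± 0.31. In eosinophils Cstb and Apoe rose by 1.32 ± 0.26 and 1.93 ± 0.38. The macrophage markers of the same libraries summed to 269 and 357 CPM in naive and 446 to 695 in tumor eosinophils, and their part in these changes was not tested.

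Over all these lists 44 genes were called in macrophages and 12 in eosinophils. In macrophages 5 of the 44 calls were lost when some single library was left out, 2 with edgeR and 3 with limma-voom. In eosinophils all 12 ended without naive library 2, a setting that left 93 genes called in the whole table, with adjusted p of 0.0667 to 0.503 by limma. Without naive library 1 the calls of Bst1, Itgb8 and Pecam1 ended (0.189, 0.108 and 0.0891). Leaving out a single tumor eosinophil library ended calls of 6 genes: Bst1 for 5 of the libraries, Lgals3bp for 4, Ctsb for 3, Itgb8 for 2, and Cd44 and Pecam1 for 1 each. limma-voom lost 7 of the 12 and edgeR 2. Bst1, Fabp5 and Itgb8 had no naive library at the filter value of 10 and were tested through their tumor libraries alone. In macrophages Adam22, Fabp4 and Postn had no tumor library at that value and were tested through their naive libraries alone. In the 4 lists with no call in eosinophils, 0 of 22 tested genes had an unadjusted limma p under 0.05, and DESeq2 called 1 of them, Mmp7, whereas edgeR and limma-voom called 0.

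Genes whose profile over the 20 libraries lay closest to that of Spp1 were ranked by the root mean square difference of log2(CPM + 1), each profile centred on its mean, among 13533 candidates. Nearest was Ass1, an enzyme of arginine synthesis, at 0.72 log2 units, against a standard deviation of 2.15 for the Spp1 profile itself. Nrg1 (0.81), a growth factor, Slc7a2 (0.95), an arginine transporter, Mmp14 (0.98), a membrane-bound metalloprotease, and Cxcl9 (1.0), a chemokine, came next. All 5 were lowest in naive eosinophils, at 1.11 to 4.87 CPM, and highest in tumor macrophages, where Ass1 stood at 239 CPM, Nrg1 at 57.9, Slc7a2 at 101, Mmp14 at 227 and Cxcl9 at 217. In naive macrophages the same genes stood at 27.9, 3.15, 10.3, 65.4 and 51.2. The likeness is a description over libraries that share the 4 groups.

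**Figure D5:**
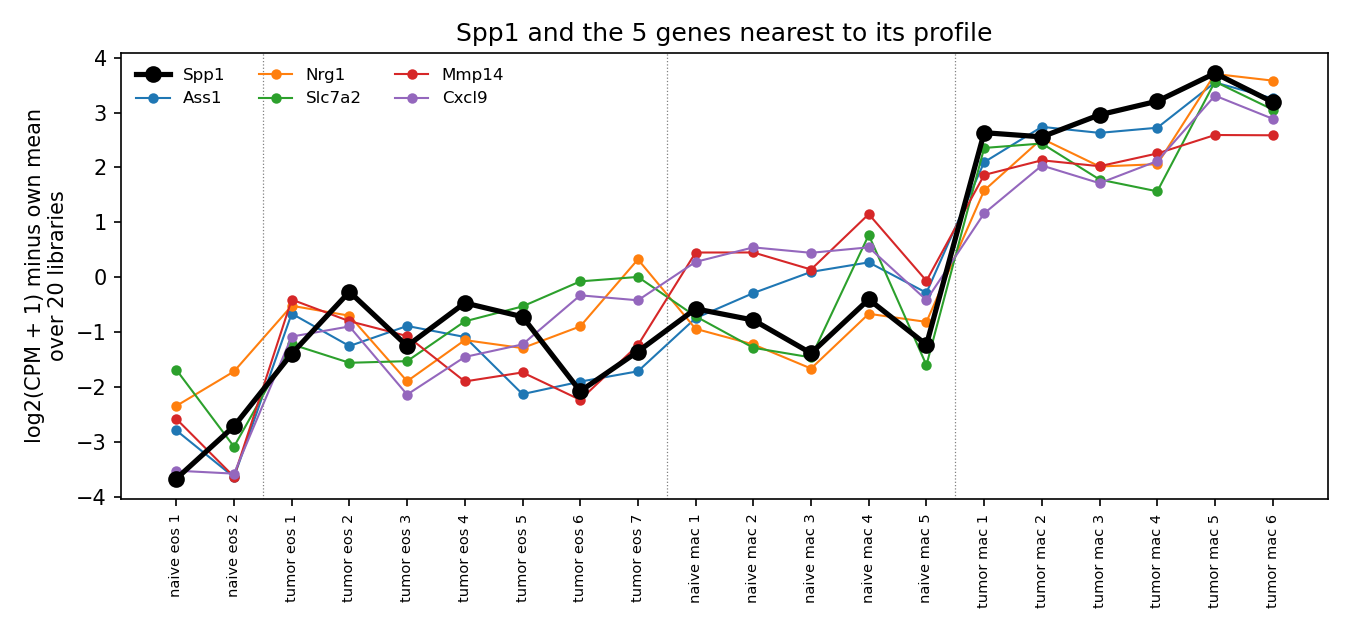
Profiles of Spp1 and the 5 nearest genes over the 20 libraries, as log2(CPM + 1) minus each gene's own mean. All 6 lines are highest in the 6 tumor macrophage libraries and have their lowest group mean in naive eosinophils, with Spp1 as the thick black line.

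By the same measure the nearest genes to Tgm2 were Cd300lf (0.47) and Gsr (0.51), to Cd38 AA467197 (0.40) and Tma16 (0.41), and to Fn1 Arl5a and Ctsl (both 0.47). Those nearest to Cd9 were Brwd1 (0.30) and Ccng2 (0.31), to Adam8 Pde3b (0.30) and Sh3kbp1 (0.31), and to Lgals3 Dap (0.18) and Sdha (0.21). The profiles of Tgm2, Fn1, Adam8, Cd9 and Cd38 had standard deviations of 2.17, 1.38, 1.21, 0.99 and 0.95. That of Lgals3 was 0.22, so its nearest genes were hardly closer than a flat line would be.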

How the data were processed

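The deposited tables hold gene values for 9 eosinophil and 11 macrophage libraries, scaled within each table. Per the submitters' processing notes the authors used build GRCm38.p5 and the tools HTSeq (0.6.1), DESeq2 (1.14.1), TopHat2 (2.1.0), Bowtie2 (2.2.6), Trim Galore and FastQC (0.11.5). Not stated are the annotation, the strand setting, the handling of molecular barcodes and how the 3 technical replicates per sample were joined. Overlapping and antisense genes may share reads. The deposited values are a signal: reads divided by a size factor, called normalised reads here, with steps that gave whole reads within 0.1 read for 100% of non-zero values. Because the values were normalised, limma replaced the count test of the plan.

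Values were tested as log2(value + 1) with limma 3.58.1 (trend, two-sided) in R 4.3.3, for genes at 10 or more in at least 2 eosinophil or 5 macrophage libraries, with Benjamini-Hochberg adjustment over all genes tested, and called at an adjusted p under 0.05. The log2(value + 1) scale understates changes of low genes. Cell types were compared on recovered reads of all 20 libraries after TMM scaling (edgeR 4.0.16), as CPM, with genes at 10 scaled reads in at least 2 libraries, in 1 fit with a mean per group. Depth was 1477255 to 8520874 reads per library. edgeR's quasi-likelihood test on recovered reads called 531 genes in eosinophils and 1944 in macrophages. Other alternatives were DESeq2 1.42.0, limma-voom with quality weights, other scalings, pseudocounts 0.5 and 5, no filter, a replicate block and each library left out. 27 entries of each table that carry a bare number for a name, at most 0.132% of a library's reads, were left out.

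The members and the gene lists were chosen with earlier results of these data known. Named genes are the members, the listed receptors, the 3 called genes with the smallest p of each other list per cell type, the 5 genes nearest to Spp1 and the nearest 2 to each other member; others are said to be named after their values were seen. Methods were tested on simulated data. Of the promoter table, 6 members had an entry; Tgm2 and Fn1 had none.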

Additional observations from a re-analysis of the deposited data

Results flagged for a closer look

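2 of the 8 genes had a library far from the rest of its group, out of 24 groups checked, of which chance would pick about 1 in 20. Both were tumor eosinophil replicate 1. Lgals3 stood there at 2500.89 normalised reads, against 1838.51 in the next library, and Marco at 2.04, from 4 reads, against 0 in the other 6. A gene read in only 1 library of its group is flagged whatever its count, so the 1 in 20 does not apply to Marco.

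Because the lists were chosen with earlier results of these data known, the count that follows is a description. The tumor effect in eosinophils minus that in macrophages passed limma's test for 12 of 106 listed genes tested (11.3%), against 4.11% of all genes, 10 of them named in the report. The other 2, named here after their values were seen, were Tspan33 (1.34) and Olr1 (−2.61). It was higher in eosinophils for F13a1 (3.71, adjusted p 0.00149), Adam33 (3.20, adjusted p 0.0069), Ecm1 (2.25, adjusted p 0.00355), Cd81 (1.81, adjusted p 0.0188) and Apoe (1.68, adjusted p 0.0212). It was lower for Thbs1 (−3.30, adjusted p 0.000853), Tgfbi (−1.94, adjusted p 0.00122), Adamdec1 (−1.73, adjusted p 0.0205), Cd63 (−1.57, adjusted p 0.00269) and Pecam1 (−1.33, adjusted p 0.0377). Without naive eosinophil library 2, 3 of the 10 remained called by limma: Tgfbi (adjusted p 0.0151), Thbs1 (0.0357) and F13a1 (0.0473). Tgfbi and Thbs1 were called in all 29 alternatives and Pecam1 in 14.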

How the results depend on the processing

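The eosinophil results rest on 2 naive libraries. The 598 genes called in eosinophils became 197 with limma-voom, 1362 with DESeq2 and 1143 with the replicate block, and 93 to 951 with a library left out (fewest without naive library 2, most without naive library 1). The 1968 called in macrophages became 1230 with the block and 1509 to 1929 with a library left out. Between naive cell types 4611 became 2609 with limma-voom, 2948 with the block and 3149 to 4927 with a library left out, and between tumor cell types 6686 became 1579 with the block and 5926 to 6959. The 648 genes with a different tumor effect became 134 with limma-voom, 1054 with DESeq2, 491 with the block and 141 to 1684 without naive eosinophil library 2 or 1. The cause was not tested. The share of these 648 that was higher in eosinophils, 39.5%, became 55.1% with median-of-ratios scaling, which moved the median of all genes from −0.03 to 0.08. Spp1's difference of tumor effects, −1.80, became 0.41 with limma-voom and 0.089 with DESeq2.

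Of 259 alternative values for the members' tumor against naive differences, 254 moved by less than the SD between libraries, 5 moved by more and none reversed. These counts do not follow the threshold, whose side changed for Spp1 in eosinophils and Fn1 in macrophages as given above. Lgals3 in macrophages lay past it with limma-voom (−0.33) and DESeq2 (−0.30). Cd38 (1.42) and Cd9 (−1.55) in eosinophils lay past it with DESeq2. Of 406 for the cell types, 395 kept side and direction and 11 lost the call: Spp1, Cd38 and Fn1 among naive libraries as given above, and with the replicate block Cd38 (adjusted p 0.0538) and Cd9 (0.464) in tumors. In macrophages replicate numbers did not pair the samples: deviations of same-numbered libraries correlated at −0.311 to 0.0560. Eosinophils have only 2 such pairs, at 0.127 and 0.124, and each naive library correlated best with the tumor library of its own number. The deviations of 2 naive libraries from their mean mirror each other, so whether the numbers pair eosinophil samples cannot be told. With the block Cd38 (1.63) and Cd9 (−1.62) in eosinophils lay past the threshold and Fn1 (0.79) in macrophages did not. Of the listed genes called, 10 of 44 in macrophages (Itgav, Lgals1 and Lgals8 among them, adjusted p 0.0520, 0.0571 and 0.0709) and 4 of 12 in eosinophils were not called with it. Depth limits Marco in all groups and Spp1 in naive eosinophils.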
